A study of Ovis aries with 6 samples.

Results

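The genes described here make, move and sense prostaglandins: the 2 cyclooxygenases PTGS1 and PTGS2, prostaglandin synthases, a transporter, an omega-hydroxylase and the prostaglandin receptors. They were taken from the array annotation, as gene probes whose gene name or description names PTGS1, PTGS2, AKR1C3 or prostaglandin F synthase (PGFS), or whose description contains the word prostaglandin. This gave 20 probes for 13 genes or transcripts, of 14205 genes and transcripts on the array. The set was selected on measured values, namely the difference between corneal and epidermal cells, so its differences are given as a description, with no test. RNA came from cultured sheep cells, 3 samples named skin epidermal stem cells and 3 named corneal epithelia cells, 1 single-colour (Cy3) Agilent array each. The design text calls them cell lines, and neither animal, age nor treatment is given in the sources used here. The labels name no treatment. With 3 arrays a group, precision is limited by their number.

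Cyclooxygenases convert arachidonic acid, released from membrane phospholipids, into an unstable endoperoxide, from which separate synthases make prostaglandins and thromboxane. PTGS1 is the form many tissues express constantly, and PTGS2 is the form that cytokines, growth factors and injury induce. In skin and cornea prostaglandins are known for their part in inflammation, wound repair and pain.

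The probes are 60 bases long, and their sequences bear on how the values can be read. The PTGS1 probe begins at base 2548 of its transcript, and its last 30 bases are shown because they hold AATAAA (capitals), the hexamer that commonly precedes a polyadenylation site.
PTGS1: tgtttttcatgaagttAATAAAatgctttt
Of the 15008 gene probes, 845 (5.63%) hold AATAAA on the printed strand. In the set 2 of 20 probes do, the other being the brighter AKR1C3 probe, printed next. Neither PTGS2 probe holds ATTTA, the pentamer of AU-rich elements, which 8.04% of all probes hold. The match is a description of the letters and does not show that the site is used.

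Prostaglandin F synthases are aldo-keto reductases of family 1, subfamily C, whose members resemble each other closely, so the probes are shown to let their sequences be compared. The probe of the transcript described as bovine-like AKR1C3 (array name TC58501) and a probe named PGFS align without a gap over 50 bases, of which 37 are the same (74.0%, capitals).
AKR1C3: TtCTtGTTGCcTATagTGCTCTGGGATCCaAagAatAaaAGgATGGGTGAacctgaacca
PGFS: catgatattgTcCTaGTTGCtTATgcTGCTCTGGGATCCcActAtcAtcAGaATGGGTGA
Another 3 probes cover a different stretch of the same family: the probe of the deposited sheep PGFS mRNA, that of TC54813, described as a prostaglandin F synthase-like protein, and that of TC54503, described as bovine dihydrodiol dehydrogenase 3. Over the 47 bases that all 3 cover, 32 are the same in all (capitals).
TC54503: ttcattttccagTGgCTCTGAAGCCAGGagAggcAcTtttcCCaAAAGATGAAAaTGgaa
TC54813: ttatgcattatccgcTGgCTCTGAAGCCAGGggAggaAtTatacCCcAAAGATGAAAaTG
PGFS mRNA: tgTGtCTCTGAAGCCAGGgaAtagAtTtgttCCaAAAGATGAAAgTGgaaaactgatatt
TC54503 is not in the set, because its description does not say prostaglandin. It was added after its values were seen.

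Of the receptors, PTGER2 has 2 probes that do not overlap, shown whole because both gave a difference, and PTGER4 has 2 that share 59 bases (capitals) and so read the same stretch of RNA. The PTGER1 and PTGER3 pairs share 58 bases each.
PTGER2, array name EP2: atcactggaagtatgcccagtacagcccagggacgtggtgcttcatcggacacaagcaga
PTGER2, array name LOC443013: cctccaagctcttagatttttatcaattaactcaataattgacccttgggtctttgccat
PTGER4: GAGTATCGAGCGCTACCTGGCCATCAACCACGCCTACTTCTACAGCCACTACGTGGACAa
PTGER4, shifted by 1 base: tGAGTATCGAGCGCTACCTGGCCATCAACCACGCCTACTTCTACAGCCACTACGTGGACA

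The arrays shared 1 slide and 1 scan. Epidermal samples were in slide row 1 and corneal samples in row 2, so the effect of cell type and that of slide row cannot be told apart. Between 11091 and 12414 of the 15208 gene spots were well above background, the scanner software's call. The share was 74.1% ± 1.56 (SD, n = 3) in corneal and 80.2% ± 2.36 in epidermal arrays (exact permutation test, two-sided, p = 0.1, which is the lowest p possible with 3 samples a group). No gene spot was saturated. Since no label ties the replicates to separate animals or cultures, p-values reflect only how far these samples spread, and that spread may be technical.

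The cell names were checked against markers. Mesenchymal markers were bright in both kinds of cells, with VIM, a mesenchymal filament protein, at 8.65 ± 0.13 in epidermal and 8.60 ± 0.02 in corneal cells, and DCN, a matrix proteoglycan, at 8.07 ± 0.44 and 8.15 ± 0.03 (normalized log2, mean ± SD, n = 3). Of 15 mesenchymal markers on the array, 15 were well above background on all epidermal arrays and 14 on all corneal arrays. Of these 15, 2 rose and 9 fell in corneal cells. Signal of the basal keratinocyte keratins KRT5 and KRT14 passed the background call on 2 epidermal arrays each and on no corneal array, and that of TP63, the transcription factor of basal epithelium, on none. DST, a linker protein of hemidesmosomes, was well above background on all 6 arrays, and KRT15 on 3 epidermal arrays and 1 corneal array. Of 9 epithelial markers on the array, 6 were well above background on all epidermal arrays and 4 on all corneal arrays. Of 6 tested, 3 rose and 1 fell in corneal cells. The epithelial markers KRT19 and CLDN7 were well above background on no array, while JUP, a junction protein, and KRT8 were so on all 6. Of the 14 genes of the corneal epithelium list, 4 were on the array: PAX6, ALDH1A1, ABCG2 and AQP5. KRT3 and KRT12 of that list were not. All 4 genes on the array were well above background on every array, epidermal and corneal. Of these 4, 2 rose and 1 fell in corneal cells. PPL and SBSN, proteins of the differentiating epidermis, were well above background on all 6 arrays too. The labels' cell names are therefore used below as names only.

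Values below are log2 of the processed signal minus the array's 75th percentile, so 0 is the 75th percentile of an array, and a difference of 1 is a factor of 2. Levels of different probes are not comparable with each other, since probes differ in how well they bind. In RNA from whole cultures, fewer cells expressing a gene and less RNA per cell cannot be told apart.

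PTGS1 was 58.6-fold higher in corneal cells. Its normalized signal was −4.15, −4.21 and −4.20 on the 3 epidermal arrays and 1.71, 1.68 and 1.67 on the 3 corneal arrays. In linear units the processed intensity lay between 51.9 and 62.2 on epidermal and between 2817 and 2956 on corneal arrays. The groups were 5.82 apart at their nearest arrays, while the SD within a group was 0.03 and 0.02. The difference was 5.87 ± 0.03 (SE), the 5th highest of the 11740 probes kept after the filter on dim probes. All 6 arrays were well above background for this probe, so the low epidermal values are measured levels. The array carries 1 PTGS1 probe, so no other probe bears on this value. With normexp, a model-based background correction (offset 50), the difference was 4.19, and 4.92 with spots of extreme local background also omitted. The offset adds 50 intensity units to every corrected signal, which by itself makes log2 differences of dim probes smaller. This holds for all normexp values below.

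PTGS2 was higher in corneal cells by both of its probes. The probe that begins at base 3301 of the transcript read 3.09, 3.11 and 3.08 on epidermal and 4.67, 4.62 and 4.62 on corneal arrays, a difference of 1.54 ± 0.03 (SE) or 2.91-fold. The probe that begins at base 3117 read −2.15, −2.14 and −2.11 against −0.62, −0.71 and −0.82, a difference of 1.42 ± 0.06 or 2.68-fold, and 0.80 with normexp. No corneal array overlapped an epidermal one for either probe. The inducible cyclooxygenase was thus well measured in both kinds of cells, at intensities of 8215 to 9438 in epidermal and 21782 to 22912 in corneal cells for the brighter probe. PTGS1 and PTGS2 were both higher in corneal cells.

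**Figure D1:**
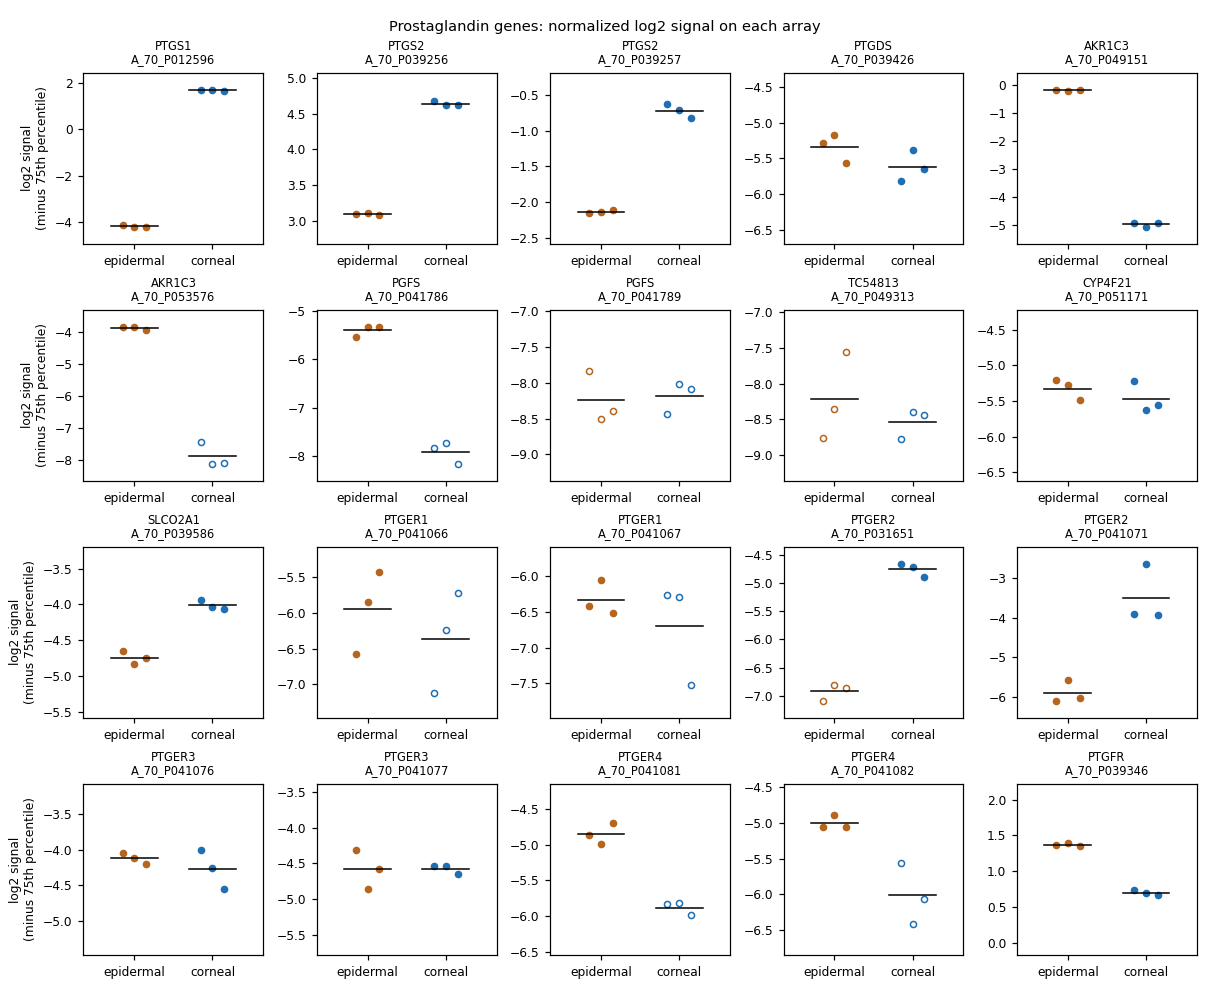
Normalized log2 signal (y axis, own range in each panel) of the 20 probes on the 3 epidermal (brown) and 3 corneal (blue) arrays, with a line at each group mean. Open circles mark groups in which fewer than 3 arrays were well above background. PTGS1 goes from −4.19 to 1.68 and the brighter AKR1C3 probe from −0.16 to −4.97, and the PGFS mRNA and TC54813 probes are open in both groups.

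AKR1C3 differed in the opposite direction. This enzyme reduces prostaglandins D2 and H2 to F-type prostaglandins and also acts on steroids. Its brighter probe read −0.15, −0.18 and −0.15 on epidermal and −4.94, −5.06 and −4.92 on corneal arrays, with intensities of 845 to 996 against 27.1 to 29.4. The difference was −4.81 ± 0.05 (SE), which is 28.1-fold lower in corneal cells, and the groups were 4.73 apart at their nearest arrays. It was −3.30 with normexp and −3.31 with extreme-background spots also omitted. The other AKR1C3 probe, which begins at base 1180, read −3.82, −3.83 and −3.93 against −7.42, −8.11 and −8.08. It was not well above background on any corneal array, so it gives only a bound, at least 5.49-fold lower, beside group means of −3.86 and −7.87. A bound sets the brighter group's mean against a mean over the dimmer group's arrays. Each array of the dimmer group gives the higher of the probe's own signal and the dimmest signal of any probe passing the background call. On the corneal arrays that dimmest signal was −6.57, −6.12 and −6.26. Brighter signals can fail the call: 1 PTGER4 probe read −5.83, −5.82 and −5.99 there and passed on 1 array. Every "at least" fold here and below is thus a convention and not a strict limit.

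The PGFS probe that aligns with AKR1C3 was lower in corneal cells as well. It read −5.53, −5.33 and −5.32 on epidermal arrays and −7.85, −7.73 and −8.17 on corneal arrays, where it was not well above background, so it was at least 1.89-fold lower. On epidermal replicate 1, 7 spots had an extreme local background. Using normexp with such spots omitted, the dim AKR1C3 probe differed by −0.73 and this PGFS probe by −0.14. The probe of the PGFS mRNA was not well above background on any array, and neither was TC54813. Their means were −8.25 and −8.22 in epidermal and −8.18 and −8.54 in corneal cells, and they were the only 2 of the 20 probes that did not pass the filter on dim probes, which asks for 3 of 6 arrays well above background. TC54503, which aligns with these dim probes at 78.0% and 82.5% of the bases compared, was not dim. It read 0.18, 0.07 and 0.06 on epidermal and −4.99, −5.14 and −5.19 on corneal arrays, a difference of −5.21 ± 0.07 (SE) or 37.1-fold. It passed the test (limma adjusted p = 2.67e-07), which says no more than its values, since it was picked for them. Whether RNA of one copy binds to the probe of another was not tested.

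**Figure D2:**
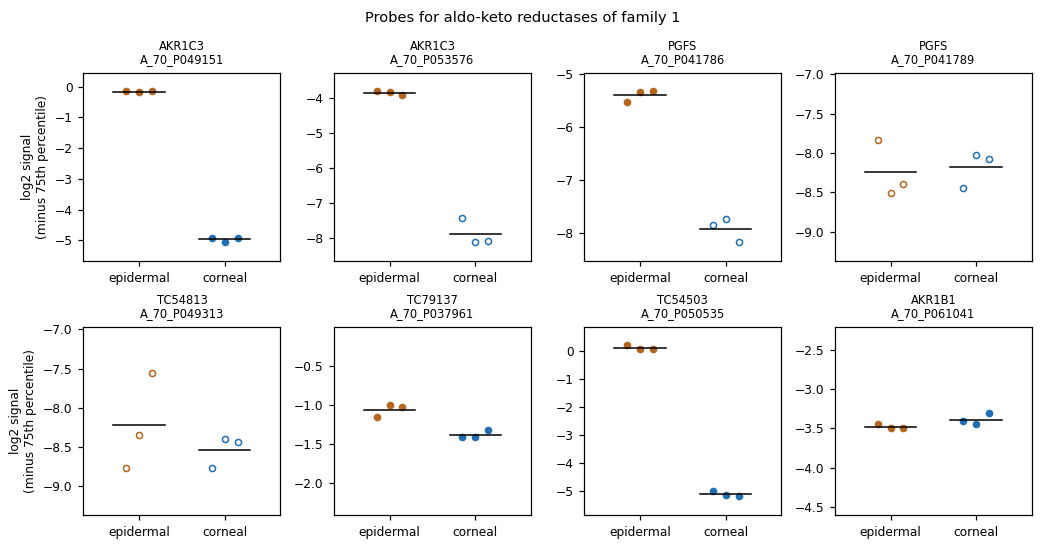
Normalized log2 signal (y axis, own range in each panel) of the 8 probes named for aldo-keto reductases of family 1, on 3 epidermal (brown) and 3 corneal (blue) arrays, with group means as lines. Open circles mark groups with fewer than 3 arrays well above background. The AKR1C3, first PGFS and TC54503 probes are lower in corneal cells, whereas AKR1B1 has means of −3.48 and −3.39.

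Of the other aldo-keto reductases of this family, AKR1B1, an aldose reductase that can also make prostaglandin F2alpha, read −3.48 ± 0.03 in epidermal and −3.39 ± 0.07 in corneal cells and did not pass the test (limma adjusted p = 0.127). TC79137, described as an AKR1C-like protein, was 0.32 lower in corneal cells (SE 0.05, adjusted p = 0.00387). It was picked with TC54503, after its values were seen.

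The remaining synthesis and clearance genes differed less. PTGDS, the lipocalin-type prostaglandin D synthase, read −5.28, −5.18 and −5.56 on epidermal and −5.82, −5.38 and −5.65 on corneal arrays. CYP4F21, a P450 that hydroxylates prostaglandins at the omega end, read −5.21, −5.28 and −5.49 against −5.22, −5.63 and −5.55. The groups overlapped for both genes, with differences of −0.28 ± 0.15 and −0.14 ± 0.13 (SE).

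SLCO2A1, the carrier that takes prostaglandins into cells for breakdown, was 1.66-fold higher in corneal cells. It read −4.65, −4.84 and −4.75 on epidermal and −3.94, −4.03 and −4.06 on corneal arrays, and no array of one group reached the other. The difference was 0.73 ± 0.06 (SE). Its probe is printed on 5 spots, of which 4 or 5 were used on each array. The SD between the spots of an array ran from 0.05 to 0.13, which does not measure the spread between arrays. With normexp background correction the difference was −0.45, and 0.39 once extreme-background spots were also omitted.

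Of the receptors for prostaglandin E2, PTGER2 was higher and PTGER4 lower in corneal cells. PTGER2 and PTGER4 both raise cyclic AMP through Gs, PTGER1 raises calcium, and PTGER3 mainly lowers cyclic AMP through Gi. The LOC443013 probe of PTGER2 read −6.10, −5.56 and −6.02 on epidermal and −3.91, −2.64 and −3.94 on corneal arrays, and corneal replicate 2 was the highest. Its difference was 2.40 ± 0.39 (SE), and 1.97 without corneal replicate 2. The EP2 probe read −7.09, −6.81 and −6.86 against −4.66, −4.72 and −4.90, a difference of 2.16 ± 0.10 or 4.48-fold, with 1 of 3 epidermal arrays well above background. Corneal replicate 2 did not stand apart in the EP2 probe. With normexp the differences were 0.03 and −0.38, and 0.99 and 0.60 once extreme-background spots were also omitted.

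PTGER4 was lower in corneal cells by both of its overlapping probes. One read −4.87, −4.99 and −4.70 on epidermal and −5.83, −5.82 and −5.99 on corneal arrays, and the other −5.06, −4.89 and −5.06 against −5.56, −6.41 and −6.07. Their differences were −1.03 ± 0.09 and −1.01 ± 0.22 (SE), and the probes were well above background on 1 of 3 corneal arrays each. With normexp and extreme-background spots omitted, the differences were −0.11 and −0.09. These probes share 59 bases and are not independent measurements.

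PTGER1 and PTGER3 overlapped between the groups. The PTGER1 probes ran from −6.57 to −5.42 on epidermal and from −7.52 to −5.72 on corneal arrays, and each was well above background on 1 corneal array. PTGER1 was thus near background, and a difference was not detectable at this signal. The PTGER3 probes ran from −4.86 to −4.05 and from −4.65 to −4.0, with differences of −0.14 ± 0.14 and 0.01 ± 0.14 (SE). Both PTGER3 probes were well above background on all 6 arrays.

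PTGFR, the receptor of prostaglandin F2alpha, was 1.6-fold lower in corneal cells. It read 1.37, 1.39 and 1.35 on epidermal and 0.73, 0.70 and 0.66 on corneal arrays, a difference of −0.67 ± 0.03 (SE). The groups were 0.63 apart at their nearest arrays and each had an SD of 0.02 or 0.03. Both AKR1C3 and PTGFR were lower in corneal cells.

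Over all probes of the set, 12 of the 18 that passed the filter did not overlap between groups, 6 higher and 6 lower in corneal cells. Of all 11740 probes that passed, 67.6% did not overlap between groups, and since the genes were chosen from this contrast nothing is read from their count. The median difference was −0.21 over the 18 probes and −0.04 over all probes.

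**Figure D3:**
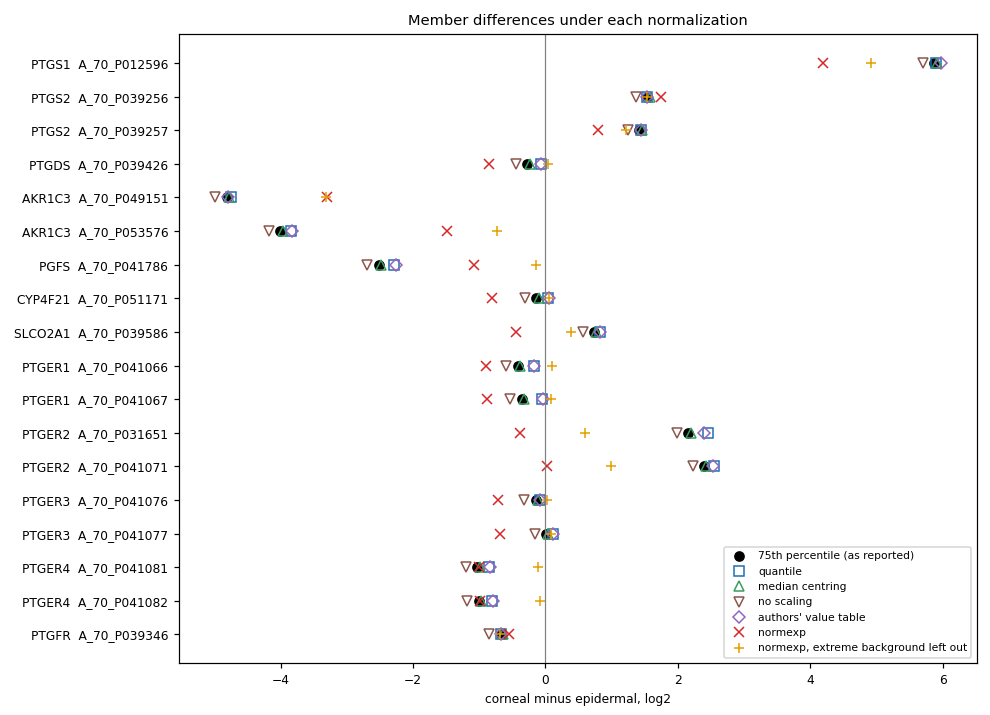
Corneal minus epidermal difference (x axis, log2) of the 18 probes that passed the filter on dim probes, under the reported normalization (filled circle) and 6 others. PTGS1, both PTGS2 probes, both AKR1C3 probes, PGFS, the LOC443013 probe of PTGER2, PTGER4 and PTGFR keep their side of 0. SLCO2A1 and the EP2 probe of PTGER2 (the upper of its rows) cross it with normexp. Probes whose groups overlap cross it under some of the settings, mostly normexp with extreme-background spots omitted.

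Genes whose profile over the 6 arrays lay nearest were found by Euclidean distance between mean-centred values, among 696 named genes outside the set. For PTGS1 these were ABCB1 (distance 1.30), a drug efflux pump, PLAAT3 (3.12), a phospholipase, and TNFRSF11B (3.25), the decoy receptor osteoprotegerin. For PTGS2 they were BMP4 (0.08), a growth factor, SLC2A3 (0.08), a glucose transporter, and MX2 (0.18), an interferon-induced GTPase. For AKR1C3 they were ALDH1A1 (0.09), a retinaldehyde dehydrogenase, COL3A1 (0.40), a fibrillar collagen, and XDH (0.55), xanthine dehydrogenase. Distances rest on 6 arrays and mainly on the difference between the 2 groups.

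The other genes of the pathway come from 9 lists of the eicosanoid system, of which 59 genes outside the set were on the array and 54 passed the filter. Of these, 19 rose and 22 fell in corneal against epidermal cells (limma, Benjamini-Hochberg over 11225 genes and transcripts, threshold 0.05). Each gene counts once in these totals, while in the counts by list below a gene in more than 1 list counts in each. Among all genes and transcripts tested, 59.3% were called, 26.7% as higher and 32.6% as lower. The median difference was 0.01 over the 54 genes and −0.04 over all. Without scaling of the arrays the split was 10 higher and 25 lower, and with quantile normalization 20 and 20. No scaling moved the median difference of all kept probes from −0.04 to −0.22, and normexp moved it to −0.29. With normexp 9 of the 54 genes passed, and 43 once extreme-background spots were also omitted. Those that passed with normexp included PLAAT3, FABP5, TNF, EGR1, IL1A, TLR2 and HSD11B1, while CREM and TLR4 differed by 0.03 and 0.08 there. CREM and TLR4 differed by 0.66 and 0.65 once extreme-background spots were also omitted.

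Upstream of the cyclooxygenases, 4 genes of arachidonate release and fatty acid supply were tested, of which 1 rose and 1 fell. PLAAT3, a phospholipase that can release fatty acids, read −2.24, −2.23 and −2.31 on epidermal and 1.06, 1.07 and 1.05 on corneal arrays. It rose by 3.32 ± 0.03 (SE), or 10.0-fold (adjusted p = 1.6e-07). FABP5, the epidermal fatty acid-binding protein, fell by 1.40 ± 0.03 (adjusted p = 1.35e-06), and its other probe differed by −0.82. ANXA2, an annexin that binds phospholipids, read 5.71 ± 0.07 and 5.85 ± 0.07 and did not pass (adjusted p = 0.0699).

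Of 2 genes of the synthase list that were tested outside the set, 1 passed, though it is not a prostaglandin synthase. That gene, MIF, a cytokine with tautomerase activity, rose by 0.67 ± 0.03 (SE, adjusted p = 1.72e-05). AKR1B1, the other, did not pass. Of 3 further prostanoid receptors tested, 1 fell. PPARG, a nuclear receptor that prostaglandin D2 products can activate, read −3.91, −3.88 and −3.80 on epidermal arrays and was not well above background on any corneal array. It was at least 5.49-fold lower in corneal cells, beside group means of −3.86 and −7.14 (adjusted p of the fitted change = 0.000103). This bound too holds for the reported processing: PPARG differed by −1.59 with normexp, which did not pass (adjusted p = 0.299), and by −0.90 with extreme-background spots also omitted. Part of that decrease comes with the normexp offset, which was not varied. PPARA, a related receptor, and TBXA2R, the thromboxane receptor, did not pass (adjusted p = 0.107 and 0.948). No gene of the breakdown and transport list outside the set had a probe named here.

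Of 9 genes of receptor signalling, 3 rose and 4 fell. The cyclic AMP-responsive repressor gene CREM rose by 0.91 ± 0.05 (SE, adjusted p = 3.95e-05), and GNAI2, an inhibitory G protein subunit, by 0.36 ± 0.03. PRKACA, the catalytic subunit of protein kinase A, rose by 0.14 ± 0.05 (adjusted p = 0.0492), with differences of 0.65 and 0.70 at its other probes and −0.04 without scaling. Its call was lost in 5 of the 6 fits that left out 1 array (adjusted p = 0.0503 to 0.134, all but epidermal replicate 2) and with the replicate number as a block (0.131). ITPR1, a calcium channel of the endoplasmic reticulum, changed by −0.74 ± 0.05, ATF1 by −0.61 ± 0.04 and CREB1 by −0.34 ± 0.05 (adjusted p = 9.92e-05, 6.06e-05 and 0.0018). ATF1 and CREB1 are transcription factors that protein kinase A phosphorylates. PRKAR1A, its regulatory subunit, read 2.93 ± 0.03 and 2.87 ± 0.01 and did not pass (adjusted p = 0.183).

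Of 27 genes that induce or regulate PTGS2, 9 rose and 14 fell. TNF, an inflammatory cytokine, read −1.59, −1.69 and −1.63 on epidermal arrays and was not well above background on any corneal array. TNF was at least 25.7-fold lower in corneal cells, beside group means of −1.64 and −8.10 (adjusted p of the fitted change = 3.72e-06). This bound holds for the reported processing: TNF differed by −2.70 with normexp and by −2.42 with extreme-background spots also omitted, which are smaller differences than the bound. Since the normexp offset alone lowers differences of a signal near background, these values do not test the bound. IL1A, the epithelial interleukin-1, changed by −1.56 ± 0.05 (SE, adjusted p = 6.15e-06), and EGR1, an immediate early transcription factor, by −1.95 ± 0.07 (adjusted p = 1.07e-05). The 6 EGR1 probes ranged from −1.95 to −0.21. IL1B, the related interleukin, rose by 0.24 ± 0.03 (adjusted p = 0.00149), and IL6 changed by −0.76 ± 0.09 (adjusted p = 0.00072). Both were named after their values were seen.

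TLR2, a receptor of bacterial products, read −1.74, −1.65 and −1.7 on epidermal and 1.03, 1.09 and 1.07 on corneal arrays, a rise of 2.76 ± 0.04 (SE) or 6.78-fold (adjusted p = 2.67e-07). TLR4, the endotoxin receptor, rose by 0.86 ± 0.06 (adjusted p = 0.000105), and CEBPB, a transcription factor that can bind the PTGS2 promoter, by 0.42 ± 0.04 (adjusted p = 0.000311). ELAVL1, which binds AU-rich RNA, read 1.77 ± 0.03 and 1.73 ± 0.04 and did not pass (adjusted p = 0.347).

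Of 5 steroid enzymes and aldo-keto reductases tested, 2 rose and 2 fell. HSD11B1, which regenerates active glucocorticoid, read 2.22, 2.17 and 2.14 on epidermal and 0.37, 0.38 and 0.37 on corneal arrays, a difference of −1.81 ± 0.03 (SE) or 3.50-fold (adjusted p = 8.7e-07). HSD11B2, which inactivates it, differed by −1.81 ± 0.46 (adjusted p = 0.0173), with 1 corneal array above the background call. Without epidermal replicate 2, epidermal replicate 3 or corneal replicate 1 its adjusted p was 0.0547, 0.0537 and 0.0549. With normexp it differed by −1.11 (adjusted p = 0.576), and by −0.21 (adjusted p = 0.104) with extreme-background spots also omitted. HSD17B4, a peroxisomal enzyme, rose by 0.25 ± 0.03 (adjusted p = 0.000635), and differed by 0.08 without scaling (adjusted p = 0.381). CYP17A1, a steroid hydroxylase, rose by 0.15 ± 0.03 (adjusted p = 0.0121) at its brighter probe, but its other probe differed by −1.39 and its direction is not settled.

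Of 4 epoxygenase-related genes, 2 rose and none fell. CYP1A1, a P450 induced through the aryl hydrocarbon receptor, rose by 0.61 ± 0.04 (SE, adjusted p = 5.48e-05). POR, the electron donor of P450 enzymes, rose by 0.27 ± 0.04 (adjusted p = 0.00144), though it differed by 0.10 without scaling (adjusted p = 0.283). With normexp POR differed by −0.20, and by 0.23 once extreme-background spots were also omitted. CYP2J, an arachidonate epoxygenase, read −3.82 ± 0.06 and −3.99 ± 0.13 and did not pass (adjusted p = 0.104). Its other probe differed by −0.40 ± 0.09, and the mean of its probes passed (−0.29, adjusted p = 0.0218). MGST1, a membrane glutathione transferase and the only gene of the leukotriene list that was tested, rose by 0.42 ± 0.06 (adjusted p = 0.0015). With normexp MGST1 differed by −0.14, and by 0.37 once extreme-background spots were also omitted.

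**Figure D4:**
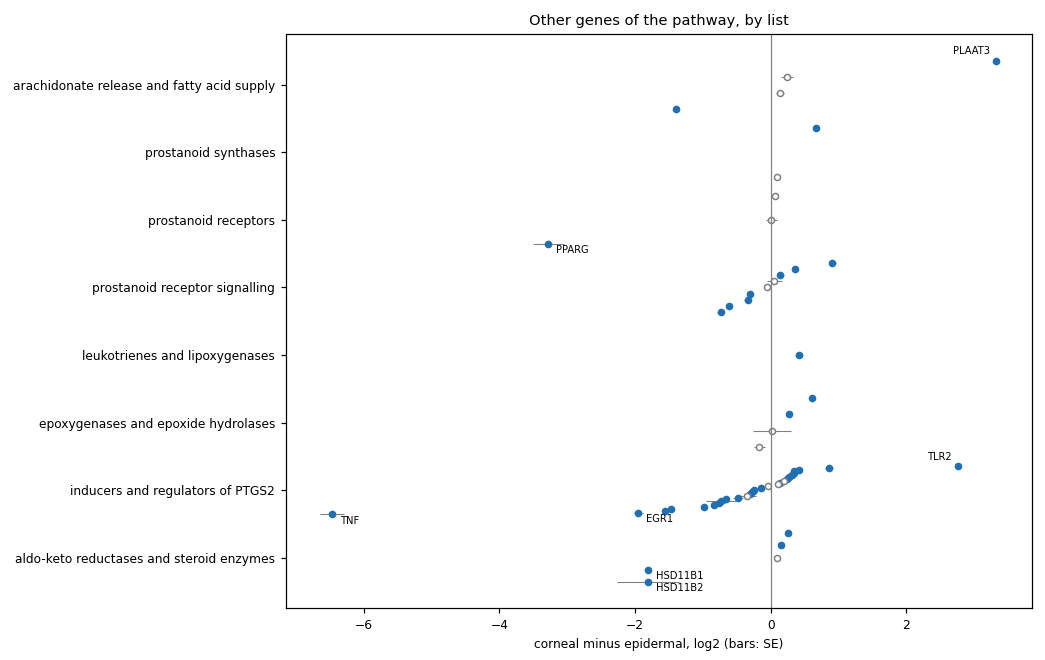
Corneal minus epidermal difference (x axis, log2, bars are SE) of the 54 tested pathway genes outside the set, by list, with AKR1B1 shown in both lists that hold it; filled points passed an adjusted p under 0.05 and open points did not. PLAAT3 and TLR2 lie farthest to the right and TNF and PPARG farthest to the left, and both of the latter were not well above background in corneal cells.

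Markers of other cell types that make prostanoids were set beside these values. Of the monocyte and macrophage list, 9 of 16 genes were on the array and 4 of 7 tested were lower in corneal cells. Their summed level ran from 23.4 to 24.3 on epidermal and from 14.8 to 15.3 on corneal arrays (linear units, 1 being an array's 75th percentile), mostly CD14, with ITGAM well above background on none. That sum was lower in corneal cells, as TNF was, and its part in the TNF value was not tested. The 4 lower genes, listed after their values were seen, were FCGR3A at −4.82, FCGR1A at −2.49, FCGR2B at −2.02 and CD14 at −0.66. FCGR1A was well above background on 0 corneal arrays and FCGR3A on 1. TYROBP, also of the macrophage list, read −0.85 ± 0.13 and −1.01 ± 0.05 and did not pass (adjusted p = 0.113). FCER1G and CD74 of that list did not pass either (adjusted p = 0.472 and 0.402). Of the platelet list, whose cells are rich in PTGS1, 2 of 10 genes were on the array, summing to 0.00756 to 0.0143 in epidermal and 0.0164 to 0.0522 in corneal cells. SELP, the platelet adhesion protein, was well above background on no array, and ITGB3 on 1 epidermal and 2 corneal arrays.

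Of 4 mast cell genes on the array, KIT and MS4A2 were well above background on none. TPSB2 was so on 2 epidermal arrays, and FCER1A on 1 corneal array, replicate 3, where it read −4.33. The sum ran from 0.0149 to 0.0261 in epidermal and from 0.0156 to 0.074 in corneal cells. Of 5 endothelial genes tested, 3 were lower and 0 higher in corneal cells: VWF by −0.63 (adjusted p = 0.00203), FLT1 by −0.63 (adjusted p = 0.000929) and TIE1 by −1.83 (adjusted p = 0.00216), named for this count after their values were seen. EGFL7 and ENG, also of that list, did not pass (adjusted p = 0.105 and 0.165). The summed endothelial level ran from 0.453 to 0.536 and from 0.495 to 0.521 over 9 genes, with PECAM1, CDH5 and TEK well above background on none. Of the corneal epithelium list, ALDH1A1, the gene nearest to AKR1C3, changed by −4.83 (adjusted p = 1.7e-07) while ABCG2 rose by 1.26 (adjusted p = 1.46e-06).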

How the data were processed

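Per the file headers, the authors' deposited scanner files hold linear intensity values for each spot, with spatial and multiplicative detrending switched on. The submitters' processing notes name Agilent Feature Extraction 10.7. The deposited value table holds log2 values with a median of 7.23 on every array. Its columns followed the scanner values of the same arrays (Pearson correlation at least 0.999 on the log2 scale), so genes were not centred, and it served as an alternative.

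Control spots (459 positive, 77 negative) and outlier spots were left out. Processed signals were put on the log2 scale, the 75th percentile of each array was subtracted, and spots of 1 probe were averaged. Of 15008 probes, 11740 well above background on at least 3 of 6 arrays were kept, and a gene took its brightest kept probe. Names came from the arrays' columns and from sheep RefSeq genes (ARS-UI_Ramb_v3.0, no coordinates taken): 767 probes matched by accession, 126 by gene ID, 541 by symbol, 15 by synonym, 16 by an older name, 65 list genes by description, and 13478 were unnamed here. The table has no AKR1C3, so that name is the array's. Differences were fitted with limma 3.58.1 in R 4.3.3 (lmFit, eBayes, corneal minus epidermal, no block), adjusted by Benjamini-Hochberg, at a threshold of 0.05, after the script was tested on simulated data.

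The genes described and the lists were chosen with earlier results of these data known. Genes named by rule were every member, up to 3 called genes per list and direction with the brightest uncalled one, the 2 markers of highest mean signal in each list, and 3 nearest profiles. Other genes were named outside that rule, among them KRT5, KRT14, TBXA2R and most markers well above background on no array. Replicate numbers did not pair the samples. Alternatives covered scaling, background correction, the dim-probe filter, probe choice, names, the value table, a replicate block and each array left out.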

Additional observations from a re-analysis of the deposited data

How the results depend on the processing

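The number of pathway genes called was 41 of 54 tested. With normexp (offset 50) it was 9, and 43 once spots with a local background above 10 times the array's median were also omitted; there were 7 such spots, all on epidermal replicate 1. Under the other settings it stayed between 31 and 44, with 37 to 40 when one array was left out. Some of these settings tested other numbers of genes. Without names from descriptions it was 31 of 38, and without the dim-probe filter 39 of 59. With only probes well above background on all 6 arrays it was 37 of 50. The replicate block gave 37. Deviations of same-numbered arrays from their group means correlated at 0.0173, −0.0292 and 0.038, so the numbers do not pair the samples. The count of member genes whose groups did not overlap was 8 of 12 and ranged from 8 to 10 when one array was left out, with 6 under both normexp settings. Of all kept probes 67.6% did not overlap. Leaving out an array cannot make separate groups of a probe overlap, so nothing is read from that range.

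Among the members, normexp turned the EP2 probe of PTGER2 to −0.38 and SLCO2A1 to −0.45. With extreme-background spots also omitted these differences were 0.60 and 0.39. Over all settings PTGS1 ran from 4.19 to 5.97, the PTGS2 probes from 1.37 to 1.75 and from 0.80 to 1.47, and the brighter AKR1C3 probe from −4.99 to −3.30. Of 481 pairs of a named pathway gene and a setting, 430 kept direction and side of the threshold. Reversals with no scaling were AKR1B1 at −0.08, ANXA2 at −0.03, CYP17A1 at −0.02, PPARA at −0.10 and PRKACA at −0.04. Reversals with normexp were AKR1B1 at −0.55, CYP17A1 at −0.47, ELAVL1 at 0.11, MGST1 at −0.14, POR at −0.20, PPARA at −0.48 and PRKAR1A at 0.16. With extreme-background spots also omitted these genes differed, in the same order, by 0.13, 0.14, −0.05, 0.37, 0.23, 0.13 and −0.06. Each was then back on the side of 0 of the reported fit. The mean of its probes put CYP17A1 at −0.62. The cause was not tested. Probes near background limit PTGER1, PTGER4, PGFS and the dim AKR1C3 probe.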
